A study of Mus musculus with 24 samples.

Results

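Fc receptors bind the constant region of antibodies, and 6 of their genes were followed here in mouse macrophages. They were Fcgr1, Fcgr4, Fcgr3, Fcgr2b, Fcer1g and Fcgrt. They were taken by gene symbol, and all 6 were found among the 23307 gene symbols of the bone marrow and tumour expression tables. All 6 also passed the filter on low values in both tables.

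Macrophages take up antibody-coated particles through Fc gamma receptors. Fcgr1 encodes FcγRI, the high-affinity receptor for monomeric IgG, Fcgr3 encodes the low-affinity activating receptor FcγRIII, and Fcgr4 encodes FcγRIV, an activating receptor for IgG2a and IgG2b. These receptors need Fcer1g, the common gamma chain, which carries the tyrosine-based activation motif (ITAM) that recruits Syk and holds them at the cell surface. Fcgr2b encodes FcγRIIB, the inhibitory receptor of macrophages, whose cytoplasmic motif recruits the phosphatase SHIP1, so the balance of activating receptors to Fcgr2b sets how readily immune complexes trigger a cell. Fcgrt encodes the heavy chain of FcRn, which pairs with beta-2 microglobulin inside endosomes and returns IgG and albumin to the cell surface instead of letting them be degraded. Interferon gamma is known to raise Fcgr1 and Fcgr4, and IL4 is the cytokine used to induce alternative activation of macrophages.

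The series compared macrophages of wild-type mice with macrophages of mice labelled as Tet2 knockout, and Tet2 is an enzyme that oxidises 5-methylcytosine in DNA. Bone marrow-derived macrophages (BMDM) came from C57BL/6 mice and were grown for 7 days in medium with M-CSF and L929-conditioned medium, a source of M-CSF. They were then left untreated (0 h) or given IL4 at 20 ng/ml for 10 or 24 h. This gave 6 groups of 2 libraries each, described as biological replicates. The labels do not say which Tet2 allele the knockout marrow carried. Tumour-associated macrophages (TAM) were isolated by flow sorting for CD11b and F4/80 from melanomas of the line YUMM1.7, a mouse line with BrafV600E, grown under the skin for 4 weeks in male C57BL/6J mice aged 6 to 8 weeks. All tumour-bearing hosts were Tet2 fl/fl. The 4 wild-type libraries (numbered 1, 2, 7 and 8) came from LysMcre wt/wt hosts and the 4 knockout libraries (numbered 3 to 6) from LysMcre +/wt hosts, in which Cre is made in myeloid cells, neutrophils included. The wild-type hosts therefore carried no Cre, and an effect of Cre itself and of Tet2 loss cannot be told apart. The labels do not say whether each tumour library came from 1 animal or from a pool, so p-values measure only the spread between these libraries. The 4 libraries of 5-hydroxymethylcytosine were not used here.

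Levels are FPKM, fragment counts scaled by transcript length and by the number of mapped fragments, which can be compared between genes. Ribosomal RNA was removed for the BMDM libraries, poly-A RNA was selected for the TAM libraries, and each set was normalised in its own table, so levels were not tested across the tables. The files used here hold no read counts. From the spacing of the lowest values, the deepest library had 1.347 times and the shallowest 0.853 times the depth of the first BMDM library, and TAM libraries had 0.637 to 1.0 times that of the first TAM library. All 11 macrophage markers were above 0 in at least 1 library of every group. Of these, Marco was near 0, at most 0.90 FPKM in BMDM and 0.57 in TAM. B cell markers, of which 7 were listed, summed to at most 3.3 FPKM in any BMDM library and 10.2 FPKM in any TAM library. Tet2 itself did not separate the genotypes in a constant direction. In BMDM it overlapped untreated, at 4.11 and 5.91 FPKM in the wild type and 4.02 and 4.48 in the knockout. At 10 h it was lower in the knockout, at 7.22 and 8.19 against 8.74 and 8.81 in the wild type. At 24 h it was higher in the knockout, at 11.3 and 10.3 against 9.38 and 9.82. In TAM the genotypes overlapped, from 7.75 to 16.1 FPKM in the wild type and from 14.4 to 19.0 in the knockout. Which exons were deleted is not given in the labels, so a level over the whole gene does not check the genotype, and knockout means the label throughout.

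The stretches before the start sites of the 4 Fc gamma receptor genes are shown because these genes moved in opposite directions under IL4 although 3 of them lie side by side on chromosome 1, in the order Fcgr2b, Fcgr4, Fcgr3. Each is the 250 bases before the annotated start in RefSeq (GRCm38.p6), written 5′ to 3′ along the gene. Capitals mark GAGGAA on either strand, a core that PU.1 and related factors bind, and TTCNNNGAA, the palindrome that many STAT dimers bind.
Fcgr1, chr3:96293970-96294219, reverse strand: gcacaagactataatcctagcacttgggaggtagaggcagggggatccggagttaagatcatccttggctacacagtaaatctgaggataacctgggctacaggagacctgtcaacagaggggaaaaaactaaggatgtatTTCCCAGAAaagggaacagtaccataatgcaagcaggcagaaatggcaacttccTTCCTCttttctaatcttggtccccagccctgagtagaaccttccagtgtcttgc
Fcgr4, chr1:171018676-171018925, forward strand: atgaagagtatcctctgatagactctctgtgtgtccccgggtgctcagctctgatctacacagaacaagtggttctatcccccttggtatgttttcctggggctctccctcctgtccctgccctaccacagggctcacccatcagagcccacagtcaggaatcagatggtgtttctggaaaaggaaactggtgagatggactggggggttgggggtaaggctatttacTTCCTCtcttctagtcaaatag
Fcgr3, chr1:171059404-171059653, reverse strand: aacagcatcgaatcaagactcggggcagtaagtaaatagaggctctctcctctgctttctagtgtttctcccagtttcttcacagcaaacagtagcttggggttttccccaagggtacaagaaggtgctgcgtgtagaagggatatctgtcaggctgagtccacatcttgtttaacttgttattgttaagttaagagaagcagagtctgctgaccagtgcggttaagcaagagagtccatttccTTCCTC
Fcgr2b, chr1:170976072-170976321, reverse strand: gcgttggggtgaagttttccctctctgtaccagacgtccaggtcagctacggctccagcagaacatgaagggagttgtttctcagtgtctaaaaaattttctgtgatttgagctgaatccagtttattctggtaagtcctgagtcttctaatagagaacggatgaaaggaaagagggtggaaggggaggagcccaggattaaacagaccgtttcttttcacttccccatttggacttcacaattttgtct
For Fcgr3, RefSeq lists a second start site, and the line shows the first. GAGGAA lay in the windows of Fcgr1, Fcgr4 and Fcgr3, in each case as TTCCTC, with 49, 16 and 0 bases between it and the start. It was not found in those of Fcgr2b, Fcer1g and Fcgrt. Of all 32851 RefSeq windows of 300 bases (250 before and 50 after a start), 28.3% held it. TTCNNNGAA was found once, before Fcgr1, and is in 8.3% of windows. The form with 1 more free base between TTC and GAA, which STAT6 favours, was in 0 of 6 windows, against 6.95% of all. Each motif was sought on both strands, and no matches overlapped. These matches say only which letters are present.

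In untreated wild-type BMDM, Fcgr3 was the highest of the 4 Fc gamma receptors, at 606.6 and 449 FPKM, followed by Fcgr2b at 149 and 137, Fcgr1 at 64.0 and 52.9, and Fcgr4 at 42.2 and 33.4. The ranges of these 4 did not overlap. Fcer1g stood at 330.4 and 403 FPKM and Fcgrt at 257 and 184. Every member was abundant: Fcgr3 ranked 89th and Fcgr4 1185th from the top by mean FPKM. Parts of the extracellular sequence of Fcgr2b and Fcgr3 are nearly identical in the mouse, and how reads matching both were assigned is not stated, so the levels of these 2 genes carry that uncertainty.

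IL4 lowered the activating receptors Fcgr1 and Fcgr4 in both genotypes and at both times. In the same comparisons it raised the inhibitory Fcgr2b. Fcgr3, the most abundant activating receptor, also rose, but did not pass in the knockout at 24 h. In the wild type at 24 h both rises turned negative after quantile normalization, that of Fcgr2b to -0.20 on the log2 scale. In the wild type at 10 h, 2 members rose, 2 fell and 2 did not pass the test (limma on log2(FPKM + 1), adjusted p below 0.05 over all tested genes). IL4 moved much of the transcriptome, and 42.4% of the 10510 tested genes passed in that comparison, as did 50% in the wild type at 24 h, 38.8% in the knockout at 10 h and 43.7% in the knockout at 24 h. By direction, 28.2% of genes rose and 14.2% fell in the first of these comparisons, 29.7% and 20.3% in the second, 24.2% and 14.6% in the third and 26.5% and 17.1% in the fourth. The counts of members past the threshold were 4, 5, 4 and 4 of 6 in that order. The median log2 difference of the 6 members was 0.00 (0.0042), -0.27, -0.20 and -0.52, beside 0.09, 0.06, 0.06 and 0.07 for all tested genes. After median-of-ratios scaling the median of all genes at 10 h in the wild type moved from 0.09 to -0.02, and the share of called genes that rose moved from 66.5% to 49.9% there and from 62.3% to 51.0% in the knockout. The 4 member calls at 10 h in the wild type held after that scaling, with Fcgr1 at -0.89, Fcgr4 at -0.62, Fcgr3 at 0.49 and Fcgr2b at 0.77.

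Fcgr1, the high-affinity IgG receptor, went in the wild type from 64.0 and 52.9 FPKM untreated to 34.8 and 33.8 at 10 h and 29.6 and 32.8 at 24 h. In the knockout it went from 54.2 and 40.6 to 21.4 and 22.1 and then to 17.3 and 19.2. In each genotype all treated libraries lay below both untreated ones. Separation of 2 libraries from 2 is a weak sign, here and for the genes below. In the knockout at 10 h all 6 members were separated from untreated, and 2 of them did not pass. The share of all tested genes so separated is not given for single BMDM comparisons. Fcgr1 fell by 0.74 ± 0.14 (log2 difference ± SE) at 10 h and 0.88 ± 0.14 at 24 h in the wild type (limma, adjusted p 0.0019 and 0.00053). It fell by 1.07 ± 0.14 and 1.32 ± 0.14 in the knockout (limma, adjusted p 0.00018 and 3.4e-05). The step from 10 to 24 h did not pass in either genotype (limma, adjusted p 0.53 and 0.25).

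Fcgr4, the receptor for IgG2a and IgG2b, showed the same order of times at a lower level. It went from 42.2 and 33.4 FPKM to 27.6 and 25.9 at 10 h and 22.1 and 25.7 at 24 h in the wild type. In the knockout it went from 26.6 and 19.4 to 14.2 and 15.3 and then to 11.96 and 11.4. Treated and untreated libraries did not overlap in either genotype. The log2 differences were -0.48 ± 0.15 and -0.64 ± 0.15 in the wild type (limma, adjusted p 0.029 and 0.0061) and -0.59 ± 0.15 and -0.91 ± 0.15 in the knockout (limma, adjusted p 0.011 and 0.00081). The 10 h call was the less firm of these: leaving out 1 library ended it for 3 of 12 libraries in the wild type (untreated library 1 and either 10 h library, differences -0.31 to -0.52) and for 2 of 12 in the knockout (untreated library 1 and 10 h library 1, -0.37 and -0.54). Of all tested genes, 7.05% fell at both times in both genotypes, as Fcgr1 and Fcgr4 did, and 13.8% rose in all of these comparisons, as Fcgr2b did.

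**Figure D1:**
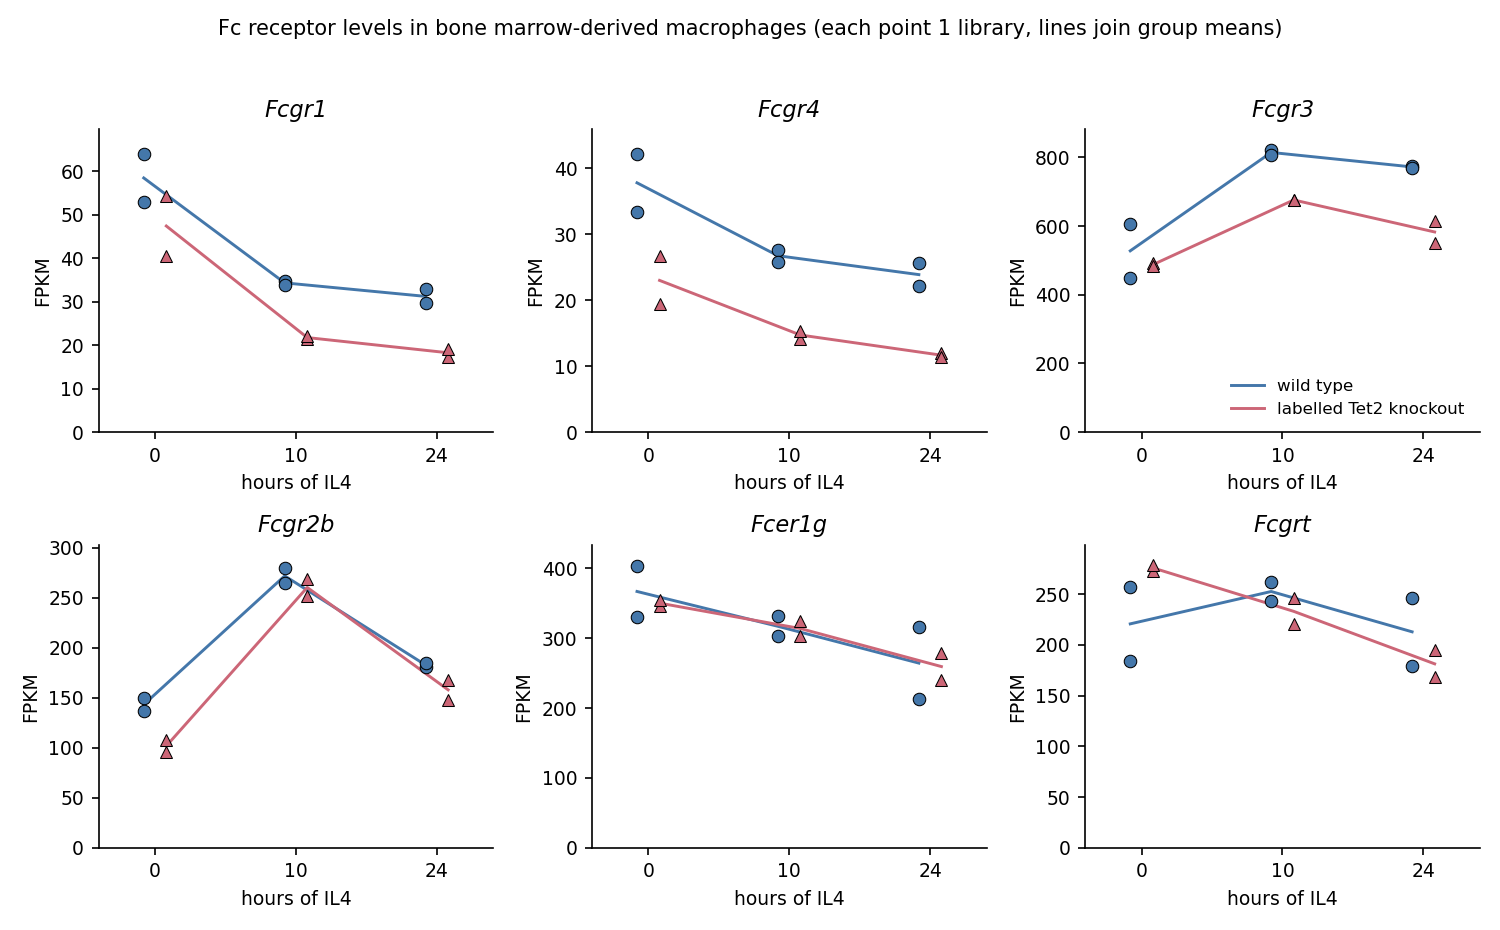
Level of each Fc receptor gene in BMDM, in FPKM on the vertical axis, against hours of IL4 on the horizontal axis. Each point is 1 library (circles, wild type; triangles, knockout) and lines join the means of 2 libraries. Fcgr1 and Fcgr4 step down with IL4 and sit lower in the knockout, Fcgr2b peaks at 10 h at 252 to 279 FPKM, and Fcer1g and Fcgrt show overlapping genotypes at most times.

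Fcgr2b, the inhibitory receptor, moved the other way and was highest at 10 h. In the wild type it stood at 149 and 137 FPKM untreated, 264 and 279 at 10 h, and 181 and 184 at 24 h. In the knockout it stood at 95.6 and 108, then 269 and 252, then 148 and 168. No library of one time overlapped another time within a genotype. It rose by 0.92 ± 0.11 on the log2 scale at 10 h in the wild type and by 1.35 ± 0.11 in the knockout (limma, adjusted p 0.00011 and 8.2e-06). From 10 to 24 h it fell by 0.57 ± 0.11 and 0.72 ± 0.11 (limma, adjusted p 0.0046 and 0.0012). It was the only 1 of 6 members to change in that step, in which 25.9% (wild type) and 23% (knockout) of all tested genes changed and 14.3% and 10.9% fell. A rise at 10 h followed by a fall to 24 h in both genotypes was seen in 2.69% of tested genes. At 24 h Fcgr2b was still above the untreated level, by 0.35 ± 0.11 in the wild type and 0.63 ± 0.11 in the knockout (limma, adjusted p 0.024 and 0.0011). The wild-type call at 24 h was lost without untreated library 2 (0.29) or 24 h library 2 (0.34) and with only the libraries compared (limma, adjusted p 0.081, 0.063 and 0.30). By mean FPKM, Fcgr2b ranked 302 from the top in the untreated wild type and 344 at 24 h. The FPKM of all genes summed to 445502 and 365118 in the untreated wild type and 466644 and 557183 at 24 h. The part of these unequal sums in the rise was not tested.

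Fcgr3, the most abundant activating receptor, moved with Fcgr2b and against Fcgr1 and Fcgr4, except after quantile normalization in the wild type at 24 h. In the wild type it went from 606.6 and 449 FPKM to 821 and 807 at 10 h and 776 and 769 at 24 h. In the knockout it went from 492 and 483 to 676 in both libraries and then to 552 and 614. It rose by 0.64 ± 0.14 at 10 h and 0.56 ± 0.14 at 24 h in the wild type, the latter -0.06 after quantile normalization (limma, adjusted p 0.0051 and 0.0082), and by 0.47 ± 0.14 at 10 h in the knockout (limma, adjusted p 0.025). At 24 h in the knockout the difference was 0.26 ± 0.14 and did not pass (limma, adjusted p 0.18). In the knockout at 10 h the call was lost when either untreated or either 10 h knockout library was left out, with differences of 0.46 to 0.48 (limma, adjusted p 0.10 to 0.12).

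Fcer1g, the gamma chain that Fcgr1, Fcgr3 and Fcgr4 share, stood lower at 24 h of IL4 in both genotypes, with a call in the wild type that was not firm. Its levels at 24 h were 213 and 316 FPKM in the wild type and 239.7 and 279 in the knockout, all below the 330.4 and 403 and the 346 and 355 of the untreated libraries. The difference was -0.49 ± 0.18 in the wild type (limma, adjusted p 0.042) and -0.44 ± 0.18 in the knockout, which did not pass (limma, adjusted p 0.073). The wild-type call was lost without 24 h library 1, the lower of its pair, where the difference was -0.21, and in 8 of 12 such omissions in all, and also without a filter and with only the libraries compared. The knockout difference gained a call in 4 of 8 other settings, median-of-ratios scaling (-0.52), quantile normalization (-0.77), the replicate block and only the libraries compared, and in 2 of 12 omissions, those of either 24 h wild-type library. The test of the difference between genotypes is the interaction, which Fcer1g did not pass.

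Fcgrt, the heavy chain of the IgG recycling receptor, fell in the knockout at 24 h alone among the 4 comparisons with untreated cells. It stood there at 195 and 168 FPKM against 273 and 279 untreated, a log2 difference of -0.61 ± 0.18 (limma, adjusted p 0.021). In the wild type the libraries overlapped, at 179.6 and 246 against 257 and 184, and the difference was -0.05 ± 0.18 (limma, adjusted p 0.84). The difference between these responses was -0.56 (95% interval -1.13 to 0.01) and did not pass (limma, adjusted p 0.28). The knockout call was lost without either untreated knockout library or without 24 h knockout library 2 (differences -0.59, -0.62 and -0.50).

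In BMDM Fcgr4 was called lower in the knockout at every time, and Fcgr1 at both IL4 times. The level of Fcgr4 in both knockout libraries lay below both wild-type libraries at 0, 10 and 24 h, which held for 2.42% of all tested genes. The log2 differences, knockout against wild type, were -0.70 ± 0.15 untreated, -0.82 ± 0.15 at 10 h and -0.97 ± 0.15 at 24 h (limma, adjusted p 0.040, 0.017 and 0.0065). Fcgr4 was thus called lower at all 3 times, as were 0.324% of tested genes. Averaged over the times, the difference was -0.83 ± 0.09 (limma, adjusted p 0.00021), and it kept its call in all 19 alternative analyses, between -0.76 and -0.90.

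For Fcgr1 the untreated difference was -0.30 ± 0.14, with overlap between the 2 genotypes (limma, adjusted p 0.36). Under IL4 it was -0.63 ± 0.14 at 10 h and -0.74 ± 0.14 at 24 h (limma, adjusted p 0.041 and 0.014). The change of the genotype difference from untreated did not pass at 10 or 24 h (limma interaction, adjusted p 0.99 and 0.28). Both knockout libraries lay below both wild-type libraries at these 2 later times. So separated were 3 of 6 members at 10 h and 4 of 6 at 24 h, with 2 called at each time. Averaged over times it was -0.56 ± 0.08 (limma, adjusted p 0.0016), with a range of -0.49 to -0.63 over the same alternatives, all of them called. The calls at single times were less firm than the averages. Leaving out 1 library ended the call of Fcgr4 in 9 of 12 cases at 0 h, 4 of 12 at 10 h and 1 of 12 at 24 h, and that of Fcgr1 in 6 of 12 at 10 h and 3 of 12 at 24 h, while the direction stayed. Fcgr4 at 0 h kept its call without untreated knockout library 1 or without either 24 h wild-type library, and ranged from -0.92 to -0.48 over all omissions. At 10 h any of the 4 libraries at 10 h ended the call of Fcgr4 (-0.87 to -0.77) and of Fcgr1 (-0.66 to -0.61), and either 24 h knockout library also that of Fcgr1. At 24 h Fcgr4 lost its call without knockout library 2 (-0.94), and Fcgr1 without wild-type library 2 or either knockout library (-0.81 to -0.67). With only the 4 libraries of a time fitted, 0 h and 24 h calls were lost too (limma, adjusted p 0.14 and 0.058 for Fcgr4, 0.081 for Fcgr1 at 24 h).

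Fcgr2b was lower in the untreated knockout, at 95.6 and 108 FPKM against 149 and 137, a log2 difference of -0.49 ± 0.11 (limma, adjusted p 0.049). At 10 h the genotypes overlapped and the difference was -0.06 ± 0.11 (limma, adjusted p 0.99), and at 24 h it was -0.21 ± 0.11 (limma, adjusted p 0.27). Averaged over times it was -0.25 ± 0.06 (limma, adjusted p 0.032). Omission of 1 library ended the untreated call in 9 of 12 cases (-0.58 to -0.40), the exceptions being untreated wild-type library 1 and both 24 h wild-type libraries. It ended the averaged call in 7 of 12 (-0.28 to -0.22), namely both untreated knockout libraries, all 10 h libraries and 24 h knockout library 1. Fcgr3 did not pass at any time, with -0.10 ± 0.14, -0.27 ± 0.14 and -0.41 ± 0.14 (limma, adjusted p 0.79, 0.61 and 0.11). Fcer1g, with differences between -0.06 and 0.00 (-0.0035), and Fcgrt, between -0.22 and 0.34, did not pass either.

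At each time 2 members were lower and 0 higher in the knockout, while 2.7%, 2.84% and 7.43% of all tested genes passed in either direction at 0, 10 and 24 h and 0.809%, 1.09% and 2.14% were lower. Averaged over times 3 of 6 were lower, against 9.94% of genes that passed and 2.88% that were lower. Of the genes called at 24 h, 71.2% were higher in the knockout as the values stand and 47.6% after median-of-ratios scaling, and averaged over times 71.0% and 55.8%. The median member difference was -0.20, -0.19 and -0.31 at the 3 times, beside 0.06, 0.01 and 0.04 for all tested genes. Whether IL4 acted differently in the 2 genotypes was tested as an interaction, and 0 of 6 members passed at 10 h or at 24 h (limma), where 0.0951% and 0.295% of all genes did. At an unadjusted p under 0.05, 1 member passed at 10 h and 0 at 24 h, against 4.07% and 18.2% of all genes. The 1 was Fcgr2b, whose rise was larger in the knockout by 0.43 (95% interval 0.07 to 0.78; limma, adjusted p 0.99).

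Other markers moved with genotype in the same libraries. Fibroblast markers, 8 genes, summed to 4.55 to 4.92 FPKM in the untreated wild type and 21.1 to 23.0 in the untreated knockout, and to 2.48 to 2.55 against 9.3 to 9.48 at 24 h. Macrophage markers, 11 genes, summed to 13531 to 16890 FPKM in the wild type and 10870 to 10892 in the knockout at 24 h, and overlapped untreated. Without Lyz2, which makes up most of that sum, they came to 5007 and 7001 FPKM against 4816 and 4756 at 24 h. Of the 10 macrophage markers tested, 3 were lower in the knockout at 24 h, namely Itgam, Cd14 and C1qa. In bulk RNA, fewer cells of a type and less RNA per cell cannot be told apart, and the part of these markers in the receptor differences was not tested.

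**Figure D2:**
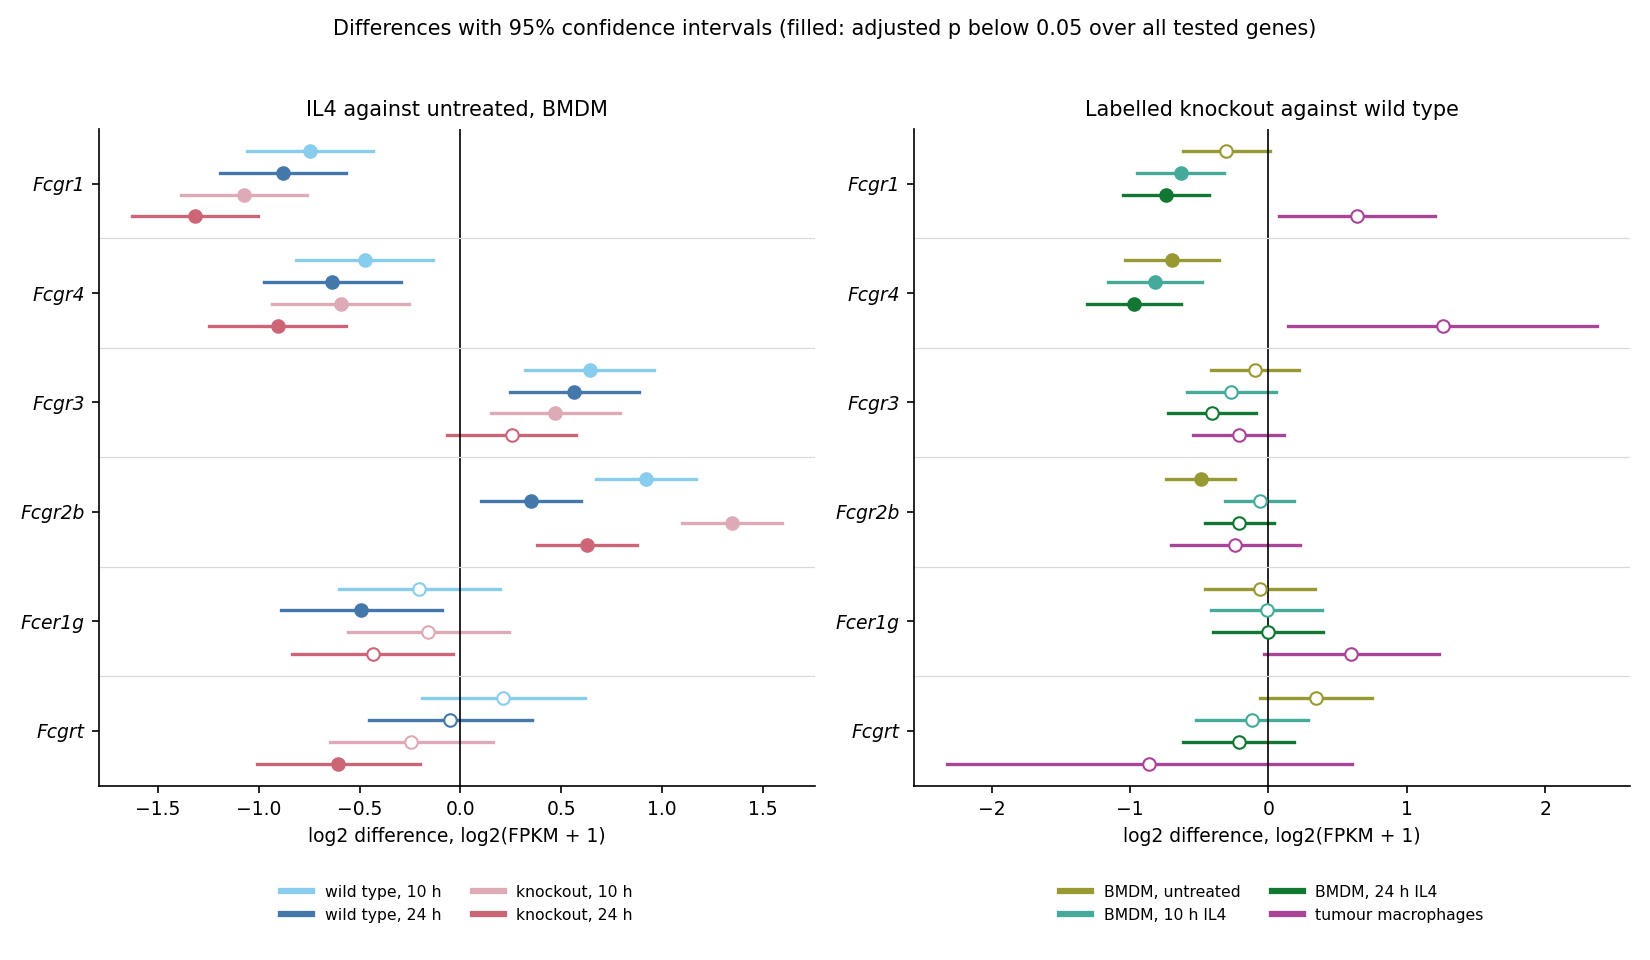
Log2 differences of the 6 genes with 95% confidence intervals (horizontal axis, log2(FPKM + 1)), for IL4 against untreated BMDM on the left and knockout against wild type on the right. Filled points passed an adjusted p of 0.05 over all tested genes, and open points did not. Fcgr1 and Fcgr4 lie left of 0 in all IL4 comparisons and in all BMDM genotype comparisons, and right of 0 in the tumour macrophages, where no point is filled.

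The mix of the 4 Fc gamma receptors moved with these changes. The summed FPKM of the activating receptors Fcgr1, Fcgr3 and Fcgr4 was 4.77 and 3.91 times that of Fcgr2b in the untreated wild type and 6.0 and 5.02 times in the untreated knockout. At 10 h of IL4 the ratio was 3.34 and 3.1 in the wild type and 2.65 and 2.84 in the knockout, the lowest of the 3 times in each genotype. At 24 h it was 4.57 and 4.48 in the wild type and 3.94 and 3.83 in the knockout. The knockout was thus above the wild type before IL4 and below it at both IL4 times, without overlap between 2 libraries and 2. No member passed the interaction test at either time. In the wild type both 24 h ratios lay between the untreated ones. Fcgr3 made up 66.8% to 76.9% of the sum in every BMDM library. The share of Fcgr4 was 4.9% and 4.97% in the untreated wild type and 1.64% and 1.4% in the knockout at 24 h. These ratios were not tested, and they rest on the assignment of reads between Fcgr2b and Fcgr3.

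**Figure D3:**
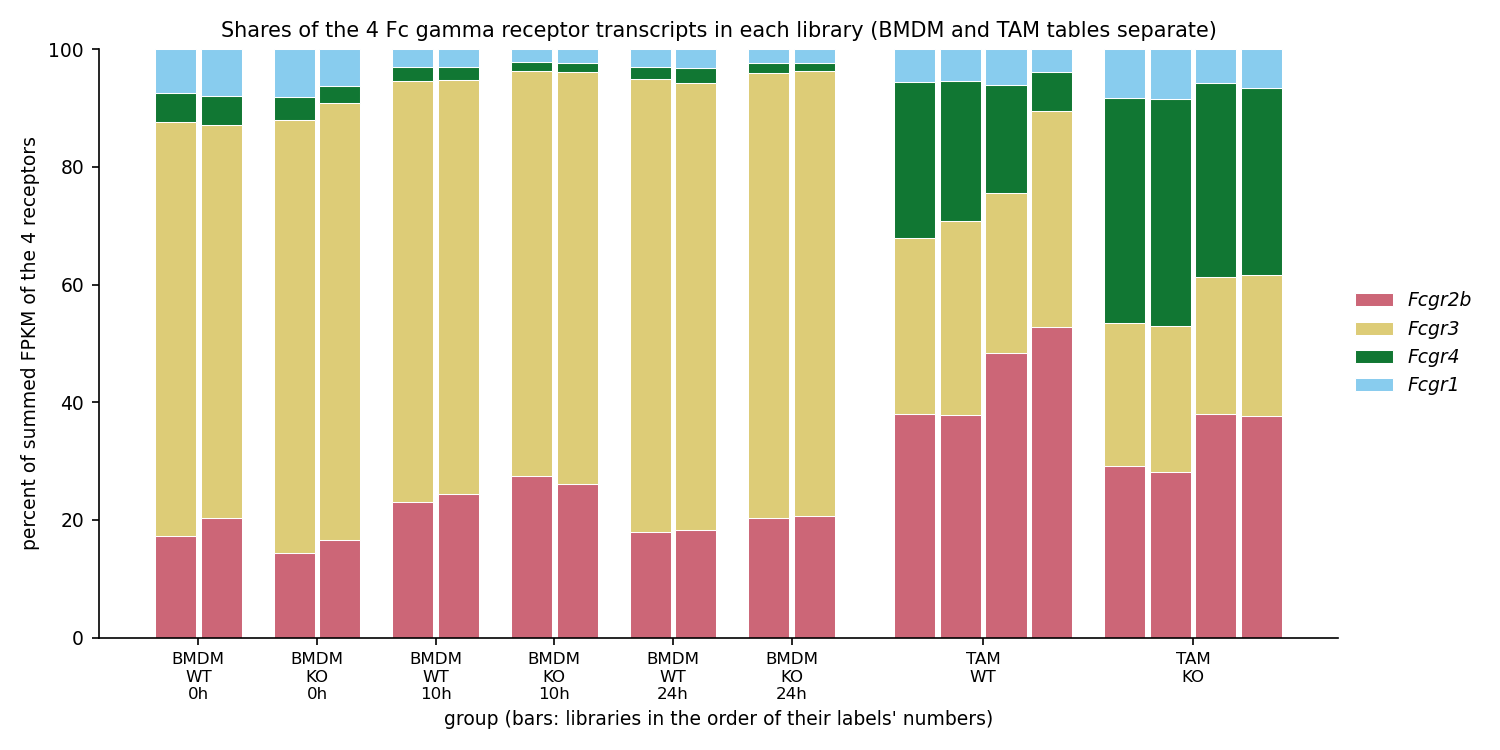
Share of each Fc gamma receptor gene in the summed FPKM of the 4 genes (vertical axis, percent), with 1 bar per library. Fcgr3 fills most of each BMDM bar, from 66.8% to 76.9%. In TAM, Fcgr4 takes 6.55% to 26.6% in the wild type and 31.8% to 38.7% in the knockout.

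In tumour macrophages the direction for Fcgr1 and Fcgr4 was opposite, but no member passed the test across all genes. Fcgr4 stood at 653, 502, 429 and 114 FPKM in wild-type libraries 1, 2, 7 and 8 and at 911, 898, 845 and 771 in knockout libraries 3 to 6. All knockout libraries lay above all wild-type ones. The log2 difference was 1.26 ± 0.49 (95% interval 0.14 to 2.38; limma, unadjusted p 0.031, adjusted p 0.25). Without wild-type library 8, the lowest, it was 0.71 ± 0.19 (limma, adjusted p 0.16).

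Fcgr1 stood at 135, 115, 142 and 68.3 FPKM in the wild type and at 198, 195, 146 and 159 in the knockout, again without overlap, though by a small margin between wild-type library 7 and knockout library 5. The difference was 0.64 ± 0.25 (limma, unadjusted p 0.031, adjusted p 0.25), and 0.41 ± 0.16 without wild-type library 8. Fcgr3 was lower in every knockout library, at 580.5, 574, 595 and 584 FPKM against 735, 698, 639.8 and 640.1, a difference of -0.21 ± 0.14 (limma, adjusted p 0.46). Among all 9897 genes tested, 12.4% had groups that did not overlap, 9.13% higher and 3.27% lower in the knockout, against 3 of 6 members, of which 2 were higher and 1 lower. Only 0.101% of genes passed the adjusted threshold, against 0 of 6 members by limma. At an unadjusted p under 0.05 there were 2 of 6 members and 16.9% of all genes.

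Fcer1g, the most abundant member in TAM, stood at 2551, 1946, 1757 and 1254 FPKM in the wild type and 3217, 3306, 2641 and 2048 in the knockout, and the groups overlapped (0.60 ± 0.28; limma, adjusted p 0.31). Fcgr2b stood at 933, 803, 1134 and 921 FPKM against 693, 656, 973 and 912, also with overlap (-0.24 ± 0.21; limma, adjusted p 0.56). Fcgrt was low, at 20.8, 14.0, 32.03 and 127 FPKM against 9.82, 13.9, 24.9 and 29.5 (-0.86 ± 0.64; limma, adjusted p 0.50). Its difference rests on wild-type library 8, without which it was -0.23 ± 0.41. The ratio of activating receptors to Fcgr2b was 1.63, 1.64, 1.07 and 0.893 in the wild type and 2.44, 2.54, 1.63 and 1.66 in the knockout, with overlap at 1.63 to 1.64. Fcgr4 made up 26.6%, 23.7%, 18.3% and 6.55% of the summed FPKM of the 4 Fc gamma receptors in the wild type and 38.2%, 38.7%, 33.0% and 31.8% in the knockout, without overlap. Fcgr2b made up 38.0%, 37.9%, 48.3% and 52.8% against 29.1%, 28.2%, 38.0% and 37.6%, with libraries at 38.0% in both genotypes. In contrast to BMDM, where Fcgr4 stood at 0.478 to 0.793 times Fcgr1 in each library, it stood at 1.67 to 4.85 times Fcgr1 in the wild-type TAM and 4.6 to 5.79 times in the knockout.

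**Figure D4:**
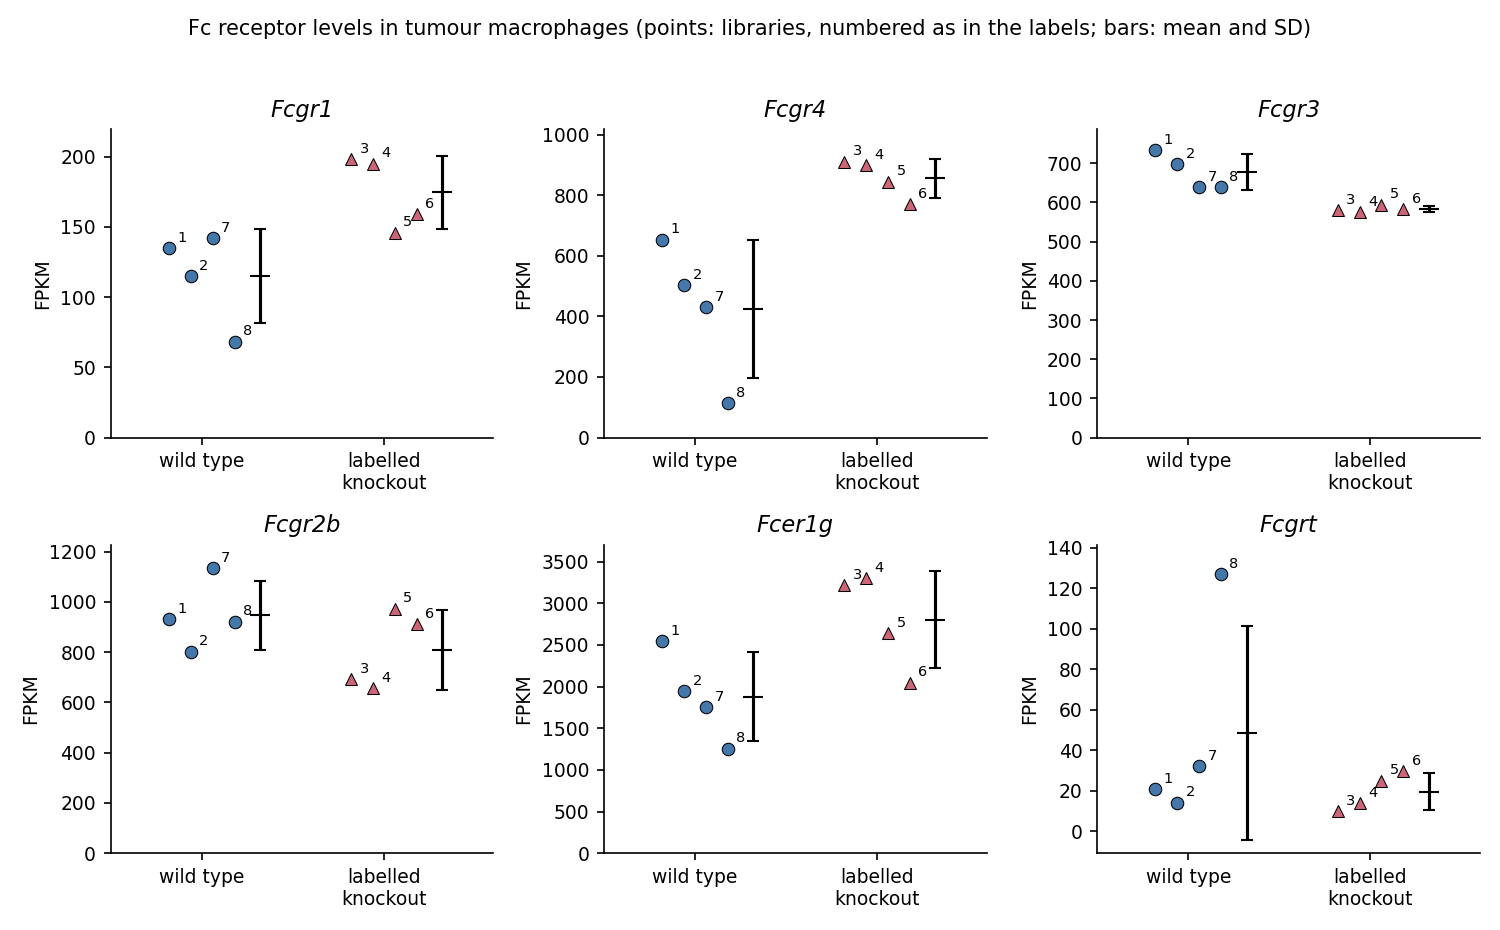
Level of each Fc receptor gene in sorted tumour macrophages, in FPKM, by genotype. Points are libraries numbered as in the labels, with the mean and SD of 4 libraries beside them. Fcgr4 and Fcgr1 are higher in all 4 knockout libraries, and wild-type library 8 is lowest for Fcgr4, Fcgr1 and Fcer1g and highest for Fcgrt, at 127 FPKM.

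The sorted tumour cells differed between libraries in other myeloid markers. Monocyte markers, 6 genes, summed to 2717, 2614, 3690 and 218 FPKM in wild-type libraries 1, 2, 7 and 8 and to 8599, 8696, 1599 and 2231 in knockout libraries 3 to 6. Neutrophil markers, 11 genes, summed to 6024 FPKM or more in libraries 1 to 4 and to 1681 or less in libraries 5 to 8, which hold both genotypes. Macrophage markers summed to 7846 to 10800 FPKM in the wild type and 5502 to 6755 in the knockout, without overlap. The gap in this sum was in Lyz2, the gene whose locus carries LysM-Cre, at 3611 to 5875 FPKM against 1091 to 3027. The other 10 markers overlapped in sum, at 3876 to 5223 FPKM against 3639 to 4969. Of these 10, Mertk alone was lower in every knockout library, at 32.8 to 43.8 FPKM against 50.8 to 81.2 (-0.83 ± 0.18; limma, adjusted p 0.11). Wild-type library 8 had a fibroblast marker sum of 252 FPKM, against 28.2 or less in the other 7 libraries. Its expression across genes correlated least with the others (r 0.925 to 0.953), and knockout libraries 3 and 4 were the most alike pair (r 0.991). Monocytes and neutrophils also express Fc gamma receptors, and the part of these cells in the differences was not tested.

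Fcgr4 was 1 of 12 genes, 0.13% of the 9261 tested in both tables, that lay lower in the knockout at all 3 BMDM times and higher in the knockout in TAM, in each case without overlap between groups. Taken singly, 2.42% of genes tested in BMDM lay lower at all 3 times, and 9.13% of those tested in TAM lay higher. The combination counted is the one that Fcgr4 itself showed, so its small share is no test of Fcgr4. The tables differ in cells and library method, and the difference between them was not tested.

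Partners of these receptors were counted by list, and no list was tested as a set. Of all tested genes, 28.2% rose and 14.2% fell in the wild type at 10 h, and the shares for other comparisons follow the lists. Of 8 tested receptors that also signal through the gamma chain, 0 rose and 6 fell in the wild type at 10 h of IL4, with a median log2 difference of -1.10 against 0.09 for all genes. At 24 h 1 rose and 6 fell in each genotype. The largest falls at 10 h in the wild type were those of Clec4d, from 192 to 36.5 FPKM, and Clec4n, from 138 to 39.4 FPKM. They encode the C-type lectin receptors Dectin-3 and Dectin-2 for fungal glycans. Pira2 fell there by 1.54 ± 0.10 on the log2 scale (limma, adjusted p 1.5e-06). At 24 h Clec4d and Clec4n fell by 2.58 ± 0.13 and 2.95 ± 0.14 in the wild type (limma, adjusted p 1.4e-07 and 8.6e-08). Clec4b1 was the 1 that rose at 24 h in the wild type, from 9.55 to 44.7 FPKM (limma, adjusted p 1.6e-06).

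Of 30 ITAM kinases and adaptors, 6 rose and 13 fell at 10 h in the wild type, and 7 rose and 14 fell at 24 h, with medians of -0.21 and -0.25. The Src-family kinase Fyn rose from 6.44 to 39.3 FPKM at 10 h, and Pik3cg, a catalytic subunit of PI3 kinase, fell from 11.4 to 3.8. Of 17 inhibitory phosphatases and adaptors, 5 rose and 5 fell at 10 h. Inpp5d, which encodes the SHIP1 that Fcgr2b recruits, fell from 45.5 to 20.0 FPKM (log2 difference -1.14 ± 0.10; limma, adjusted p 1.1e-05), while Dok2, an adaptor that restrains Ras signalling, rose from 14.5 to 119 FPKM. Of 6 NADPH oxidase genes, which make the respiratory burst of phagocytosis, 1 rose and 3 fell at 10 h. Ncf1, a cytosolic subunit, fell by 0.68 ± 0.10 on the log2 scale (limma, adjusted p 0.00049).

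Of 17 tested genes listed as inhibitory receptors of myeloid cells, 3 rose and 4 fell at 10 h in the wild type. At 24 h 4 rose and 8 fell. Whether each carries the tyrosine-based inhibition motif of Fcgr2b was not checked, and the list includes Siglec1. The collagen receptor Lair1 rose from 14.4 to 43.5 FPKM at 10 h, and the lectin Clec12a fell from 105 to 20.5 FPKM. Of 13 other Fc and immunoglobulin receptor genes, 5 passed the filter, and 0 rose and 1 fell at 10 h, Fcrl1, from 7.24 to 1.058 FPKM.

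Of 9 genes for regulators of Fc gamma receptor transcription, 3 rose and 0 fell at 10 h in the wild type. Socs1, an inhibitor of JAK kinases, went from 0.66 to 58.7 FPKM, and Irf1 from 33.5 to 82.9. At 24 h Irf8 fell from 80.1 to 47.9 FPKM (limma, adjusted p 0.00072). Of 30 genes of the phagocytic actin machinery, 9 rose and 9 fell at 10 h, with a median of -0.07. Beside these lists, 42.4% of all tested genes changed in the wild type at 10 h (28.2% rose and 14.2% fell), 50% at 24 h (29.7% and 20.3%), and 43.7% in the knockout at 24 h (26.5% and 17.1%).

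Between genotypes, averaged over times, 9.94% of all tested genes passed in BMDM (2.88% lower in the knockout). Of the 17 genes listed as inhibitory receptors, 7 were higher and 1 was lower in the knockout, with a median log2 difference of 0.21 against 0.03 for all genes. The endothelial and leukocyte adhesion molecule Pecam1 was higher by 0.40 ± 0.06 and Cd300lf by 0.34 ± 0.06, and Siglec1, the sialic acid receptor of macrophages, was lower, at -0.71 ± 0.11 (limma, adjusted p 0.0027, 0.0043 and 0.0027). Of 30 ITAM kinases and adaptors 2 were higher and 2 lower, of 8 gamma-chain receptors 1 and 0, of 17 phosphatases and adaptors 0 and 1, of 30 actin genes 1 and 0, of 6 NADPH oxidase genes 0 and 1, of 9 regulators 1 and 1, and of 5 other Fc and immunoglobulin receptors 0 and 1. Among gamma-chain receptors Pira2 was higher in the knockout at 0, 10 and 24 h, by 0.68 ± 0.10, 0.76 ± 0.10 and 0.77 ± 0.10 (limma, adjusted p 0.0046, 0.0021 and 0.0025). Pira1, Pira6 and Pira11 did not pass averaged over times (limma, adjusted p 0.64, 0.056 and 0.21). How reads matching more than 1 Pira gene were assigned is not stated. Blnk, an adaptor of Syk signalling, was lower at all 3 times, at 19.7 against 28.9 FPKM untreated, 8.29 against 15.2 at 10 h and 16.4 against 27.3 at 24 h. Cebpb, a transcription factor of myeloid genes, was lower at 24 h, at 27.8 against 60.2 FPKM (limma, adjusted p 0.025). In TAM 0 genes of any of these lists passed by limma. The gamma-chain receptors had a median log2 difference of 0.68 there, against 0.09 for all tested genes, and 9 of 9 had estimates above 0, as did 61.9% of all tested genes. Most other lists leaned the same way without a call. Estimates were above 0 for 24 of 28 ITAM kinases and adaptors (median 0.33), 24 of 28 actin genes (0.22) and 14 of 19 genes listed as inhibitory receptors (0.35). The same held for 8 of 9 regulators (0.42), 5 of 6 NADPH oxidase genes (0.28) and 5 of 6 other Fc and immunoglobulin receptors (0.63). The phosphatases and adaptors did not lean that way, with 10 of 17 above 0 (0.05), under the share and median of all tested genes.

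Genes with the most similar course over the 12 BMDM libraries were sought for the members whose group means spanned at least 1 on the log2 scale, among 9703 genes. Likeness was the root-mean-square difference of the centred log2 profiles, so a smaller value is closer. Fcgr1 was closest to Lyz2, the gene of lysozyme M whose promoter drives LysM-Cre, at 0.15, followed by Lhfpl2 and Nlrp3. Fcgr4 was closest to Slc11a1, a phagosomal metal transporter, at 0.22, followed by Tcp11l2 and Syngr1. Slc11a1 stood at 83.8 and 68.3 FPKM in the untreated wild type and 43.1 and 41.4 in the untreated knockout, and at 40.2 and 59.9 against 22.3 and 21.3 at 24 h. Fcgr2b was closest to Osbpl3, an oxysterol-binding protein, at 0.17, followed by Hnrpll and Gpr65. Between members, Fcgr1 and Fcgr4 were the closest pair at 0.22, and Fcgr1 and Fcgr2b the farthest apart at 0.92. Fcgr3, Fcer1g and Fcgrt spanned less than 1 and were not matched.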

How the data were processed

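RNA was measured in 20 of the 24 samples of the series, 12 BMDM and 8 TAM libraries. The deposited values are FPKM per gene, made with TopHat and Cuffdiff on mm9 per the submitters' processing notes; their versions and the gene annotation are not given in the sources used here. The name of the BMDM table gives its unit, and the unit of the TAM table was taken from those notes. Of 23307 symbols, 23154 matched the reference. The members and all gene lists were chosen with earlier results of these data known. Values were taken as log2(FPKM + 1) and tested with limma 3.58.1 in R 4.3.3 with an intensity trend, on 10510 genes with at least 1 FPKM in 2 or more BMDM libraries (6 groups in 1 model) and 9897 genes with at least 1 FPKM in 4 or more TAM libraries. Benjamini-Hochberg adjustment ran over all tested genes, with a threshold of 0.05, in 13 comparisons. The limma steps were tested on simulated data. FPKM drops the sampling depth of each gene, so low values carry more counting error than the model is told; fold changes on this scale understate the change of low genes. Comparisons with the same untreated or wild-type groups share those libraries. Named partner genes come from the 3 called genes of each list with the smallest p in each comparison. Alternatives changed the pseudocount (0.1), filter, scaling, trend, libraries in the fit and the libraries left out, plus averaging of TAM knockout libraries 3 and 4, chosen after seeing the data. Python 3.11.15 with pandas 2.3.3 and matplotlib 3.10.9 made summaries and figures. Upstream sequences come from RefSeq tables of GRCm38.p6, not from mm9.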

Additional observations from a re-analysis of the deposited data

Results flagged for a closer look

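The level of Fcgrt in wild-type TAM library 8 was 126.8 FPKM, against 14.0 to 32.03 FPKM in the other 3 wild-type libraries. The gap to the nearest library was 0.840 of the group's range, above the 95% critical value of Dixon's test for 4 libraries. Chance passes this test in about 5% of groups, and 12 groups were checked. That library also had the highest fibroblast marker sum and the lowest monocyte marker sum of the 8, and the part of these cells was not tested.

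The genotype difference of Fcgr4 had opposite signs in the 2 settings. It was 1.26 in TAM and -0.83 in BMDM averaged over times (log2, knockout against wild type), and in each setting all knockout libraries lay on one side of the wild-type libraries of the same time. The difference between the settings was not tested, since the tables were normalised separately.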

How the results depend on the processing

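Of 1524 recomputed member values, 1378 kept their direction and side of the threshold, 80 lost the call, 29 gained one and 37 changed sign, 2 of these among called results. Of 28 called member results, 13 held in every alternative. The number of members past the threshold, which was 2 for knockout against wild type at 0 h, became 1 with a pseudocount of 0.1, without a filter, with 1 FPKM in every library and with the replicate block, and 0 when only the libraries compared were fitted. At 10 h it was 1 without a filter and with the replicate block. With only the libraries compared it was 0 for genotype at 24 h, 2 for wild-type IL4 at 24 h and 3 for knockout 24 h against 10 h. With quantile normalization it was 2 for 24 h against 10 h in both genotypes.

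Leaving out each library in turn gave 3 to 5 members for wild-type IL4 at 24 h, 0 to 2 for wild-type 24 h against 10 h, 2 to 4 for knockout IL4 at 10 h, 0 to 2 for genotype at 0 h and at 10 h, 0 to 3 for genotype at 24 h and 0 to 1 for the interaction at 24 h. The 1 was Fcgr3 without untreated wild-type library 1. In TAM it stayed 0. The cause of these shifts was not tested, beyond the fewer libraries in the fit.

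Signs that changed with scaling were as follows. Averaged over times, the genotype value of Fcgrt was -0.04 after median-of-ratios scaling and -0.0695 after quantile normalization. Quantile normalization also gave -0.32 for Fcgrt in the wild type at 10 h, -0.20 for Fcgr2b and -0.056 for Fcgr3 in the wild type at 24 h, 0.0674 for Fcer1g by genotype at 24 h, 0.0275 and 0.0075 for the 10 h interactions of Fcgr3 and Fcgr4, and 0.15 for the 24 h interaction of Fcgr3.

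Leaving out 1 library moved uncalled values across 0. Fcgrt ranged from -0.0263 to 0.45 in the wild type at 10 h, from -0.29 to 0.19 at 24 h, from -0.44 to 0.0104 by genotype at 24 h and from -0.0774 to 0.0819 averaged over times. Fcer1g by genotype ranged from -0.20 to 0.0839 at 0 h, -0.0803 to 0.0519 at 10 h, -0.29 to 0.28 at 24 h and -0.12 to 0.069 averaged, and its interactions from -0.10 to 0.19 at 10 h and -0.23 to 0.34 at 24 h. Fcgr3 by genotype at 0 h ranged from -0.31 to 0.12, and the 10 h interactions of Fcgr3 and Fcgr4 from -0.39 to 0.0463 and -0.34 to 0.10.

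Deviations of same-numbered BMDM libraries correlated weakly, at -0.141 to 0.149 over 15 group pairs, 5 of them above 0.1. With 2 libraries a group, these values cannot settle whether replicate numbers pair the libraries. With the replicate block, Fcgr2b at 0 h and averaged over times and Fcgr1 at 10 h lost their genotype calls (limma, adjusted p 0.081, 0.053 and 0.0599), and Fcer1g in the knockout at 24 h gained one (limma, adjusted p 0.035). In TAM no paired analysis was possible because the groups share no replicate numbers. Over all tested genes, the count of genotype calls ranged with the setting from 138 to 459 at 0 h (284 as reported), 149 to 604 at 10 h (299), 44 to 1189 at 24 h (781) and 1 to 11 in TAM (10).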
